A study of Mus musculus with 20 samples.

Results

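The genes described here are 32 chaperones, folding enzymes, sensors and degradation factors of the endoplasmic reticulum (ER) in mouse liver. They were chosen by name. Of the probe sets that map to a single gene, the brightest on average over the 20 arrays stood for that gene. All 32 were found among the 18193 genes with a probe set of their own, and all 32 passed the filter on low values that left 11728 genes for testing. Ero1lb of the list is given under its current symbol, Ero1b.

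The ER is where secreted and membrane proteins enter the secretory pathway, fold and receive their disulfide bonds and sugars, and hepatocytes, which secrete most plasma proteins, depend on it heavily. When unfolded proteins accumulate there, the membrane sensors IRE1 (gene Ern1), PERK (Eif2ak3) and ATF6 (Atf6) start the unfolded protein response. IRE1 splices the mRNA of the transcription factor XBP1, ATF6 is cleaved to release a transcription factor, and PERK slows translation. XBP1 and ATF6 act through promoter elements of chaperone and degradation genes, among them Hspa5, which encodes BiP, the main HSP70 chaperone of the ER lumen.

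Livers came from male C57BL/6J mice, an inbred strain, bought at 3 weeks of age and given 1 week of a low-fat diet before the study diets. In the MSXH group, 10 mice received a diet with 45 kcal% fat plus 0.05% of an extract that the labels call maple syrup extract high. In the HFD group, 10 mice received the 45 kcal% fat diet alone. Both groups were fed for 4 weeks, were fasted for 16 h before the livers were removed at day 30, and are labelled as 8 weeks old. The comparison therefore addresses an extract added to high-fat feeding, in fasted liver, and groups on a low-fat diet or with less extract were not analysed here. Each mouse gave 1 array and is labelled a biological replicate. Precision is limited by how many arrays there are. All 8 hepatocyte markers with a probe set of their own, Alb among them, lay above the filter.

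The deposited values are log2 levels whose differences between arrays are compressed: the median probe set had an SD of 9.33e-06 over the 20 mice. Differences between mice cannot be read as fold changes of RNA. Levels are therefore printed with enough decimals to show the spread, differences between diets are given in SD units, and a level is compared only with levels of the same probe set. In bulk liver, a change in the number of cells of a type and a change in RNA per cell cannot be told apart.

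The promoters of several of these genes share an element, shown here because the genes that hold it include the chaperone to which the others are compared below. The ER stress response element (ERSE) was searched as CCAAT and CCACG separated by any 9 bases, on both strands, in RefSeq windows from 250 bases before to 50 after each annotated gene start (build GRCm38.p6). The 250 bases before the start of Hspa5, on the plus strand at chr2:34771840-34772089, hold a match that begins 65 bases before the start. Capitals mark the fixed letters of the element, here and in the lines after it. The strand named with each position is that of the gene. A match on the strand opposite to the gene is seen as its reverse complement, CGTGG before ATTGG.
Hspa5 promoter: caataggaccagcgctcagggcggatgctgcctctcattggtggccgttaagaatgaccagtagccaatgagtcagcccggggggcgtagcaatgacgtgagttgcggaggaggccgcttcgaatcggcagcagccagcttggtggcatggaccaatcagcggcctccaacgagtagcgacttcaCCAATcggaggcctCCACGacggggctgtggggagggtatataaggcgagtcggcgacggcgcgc
The sites in the other members follow with 12 bases on each side, each read 5′ to 3′ in the direction of its gene.
Dnajc3, chr14:118937815-118937857, plus strand: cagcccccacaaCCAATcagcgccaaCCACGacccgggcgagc
Pdia6, chr12:17266479-17266521, plus strand: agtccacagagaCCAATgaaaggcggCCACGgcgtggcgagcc
Syvn1, chr19:6046520-6046562, plus strand: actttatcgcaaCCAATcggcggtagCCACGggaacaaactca
Canx, chr11:50325788-50325830, minus strand: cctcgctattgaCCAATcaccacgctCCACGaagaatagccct
Hsp90b1, chr10:86705626-86705668, minus strand: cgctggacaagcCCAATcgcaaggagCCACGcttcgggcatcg
Hsp90b1, chr10:86705521-86705563, minus strand: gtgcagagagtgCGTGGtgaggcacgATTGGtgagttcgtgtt
Creld2, chr15:88819508-88819550, plus strand: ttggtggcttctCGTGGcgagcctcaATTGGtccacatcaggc
Calr, chr8:84847063-84847105, minus strand: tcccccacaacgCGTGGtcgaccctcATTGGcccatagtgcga
Derl3, chr10:75893230-75893272, plus strand: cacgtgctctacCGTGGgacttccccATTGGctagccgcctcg
Ero1b, chr13:12565670-12565712, plus strand: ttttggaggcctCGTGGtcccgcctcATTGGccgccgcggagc
Herpud1 holds the related ERSE-II, searched as ATTGG and CCACG separated by any 1 base, on both strands.
Herpud1, chr8:94386365-94386399, plus strand: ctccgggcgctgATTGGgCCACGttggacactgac

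Of the 32 genes, 26 had a promoter in the RefSeq table, and the other 6 were Atf6, Manf, Hyou1, Derl1, Sec61a1 and Hspa13. ERSE was found in 10 of the 26 (38.5%), against 37 of 27025 genes with a promoter in the table (0.137%). ERSE-II was found in 2 of the 26, Herpud1 and Dnajb11, where it lies just after the start, against 0.0444% of genes. The UPRE, searched as TGACGTGG on both strands, was in 0 of the 26, against 0.714% of genes. CCACG alone, which ERSE and ERSE-II also contain, was in 21 of the 26, against 35.5% of genes. The members were chosen by name as genes of this response, so these shares describe the list and are not a test of it. A match of letters describes the window and does not show binding by a factor.

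Across the 20 livers, the ER genes moved up and down together. All 31 other members had a positive correlation with Hspa5, with a median Pearson r of 0.768, against 0.055 over the 11727 other genes tested. After Benjamini-Hochberg adjustment over all genes (threshold 0.05, two-sided permutation test over mice), 20 of the 31 members correlated positively with Hspa5, where 1.65% of all genes tested did. The 5 highest r of all genes were those of Sdf2l1, Manf, Sel1l, Pdia4 and Creld2, and 8 members stood among the 20 highest.

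**Figure D1:**
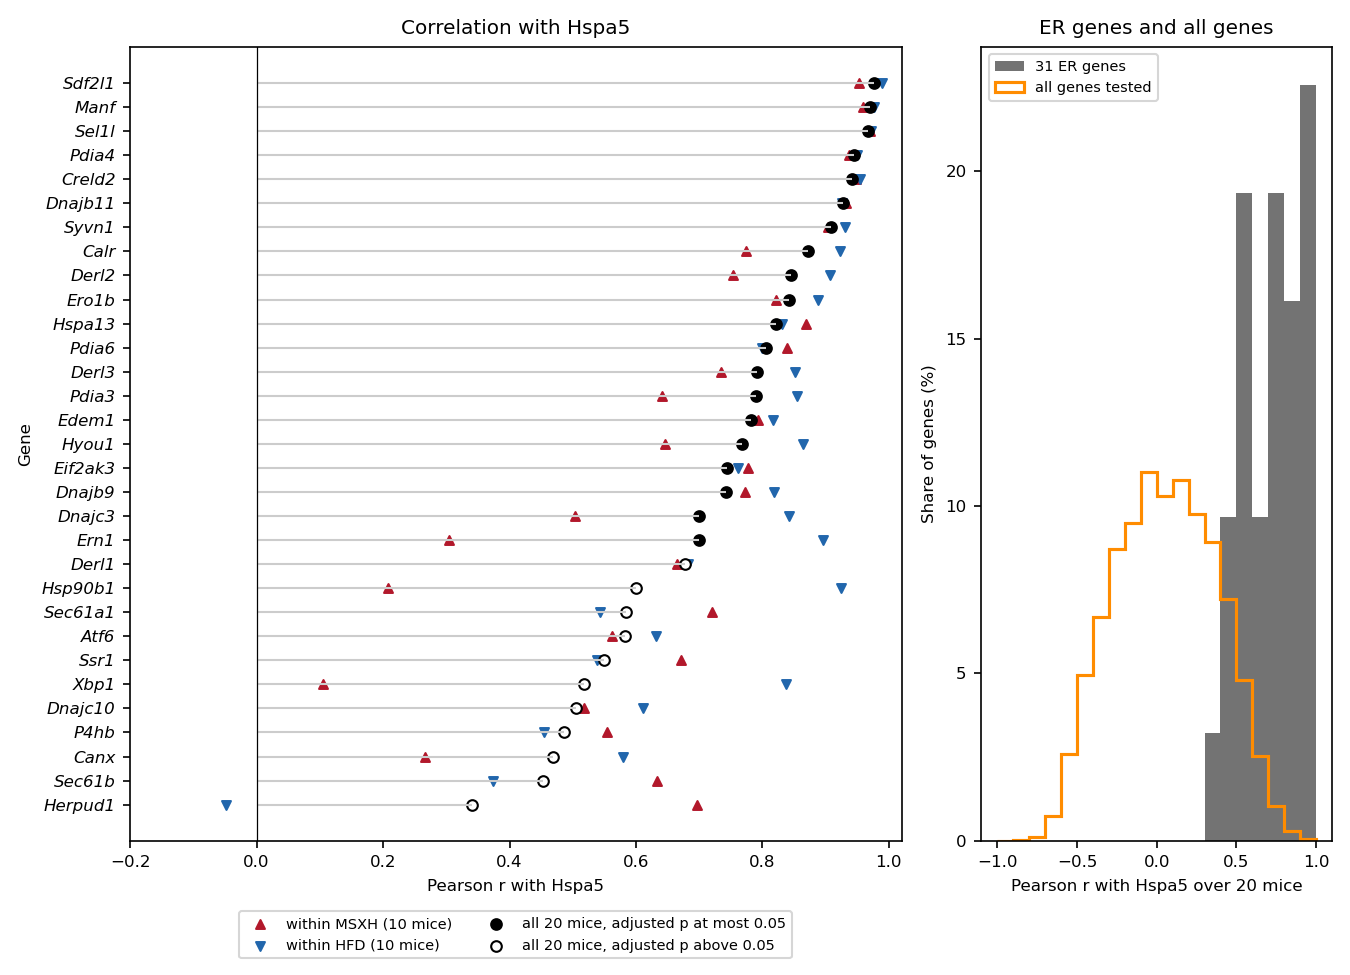
Pearson r of each gene with Hspa5 (left, horizontal axis) over all 20 mice (circles, filled where the adjusted permutation p is at most 0.05), within the 10 MSXH mice (red triangles pointing up) and within the 10 HFD mice (blue triangles pointing down), and the distribution of r over all genes tested (orange line) beside the 31 members (grey bars) as shares of genes in percent (right). The members run from 0.341 for Herpud1 to 0.976 for Sdf2l1, and the 20 filled circles are at 0.699 or higher.

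Members varied more between mice than most genes did on the compressed scale. Their median SD over the 20 mice was 0.0002846, against 1.484e-05 over all genes tested, and 31 of 32 exceeded that median. The SD of 22 of 32 members was in the top 10% of genes, and the SDs of Creld2 and Sdf2l1 were in the top 1%. P4hb, protein disulfide isomerase itself, was the member below the median, at 1.23e-05. The compression need not be equal between probe sets, so these ranks hold only for the deposited values. The shares of all genes and of all pairs set beside those of the members were not matched for this spread.

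Hspa5, encoding BiP, was between 13.05917 and 13.05978 in MSXH livers, with a median of 13.05956, and between 13.05910 and 13.05988 in HFD livers, with a median of 13.05960. The ranges overlapped almost fully, with the lowest mice of each diet (MSXH replicate 5, HFD replicate 2) and the highest (MSXH replicate 4, HFD replicate 5) at similar levels. A second Hspa5 probe set followed the first over the 20 mice (r = 0.962), while another, dimmer one did not (r = -0.0325).

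Among the HSP70 partners, Sdf2l1, which encodes a luminal protein that works with BiP and its J proteins, followed Hspa5 most closely of all genes tested. Its levels ran from 8.6630 over a median of 8.6735 to 8.6813 in MSXH livers, and from 8.6590 over 8.6741 to 8.6846 in HFD livers. Its r with Hspa5 was 0.976 (permutation p = 1e-05, the smallest that 100000 permutations can give, adjusted p = 0.00404). Of the J proteins that bring clients to BiP and start its ATP cycle, Dnajb11 (ERdj3) had r = 0.928, Dnajb9 (ERdj4) 0.742 and Dnajc3 (p58IPK) 0.70, all past the threshold. Dnajc10 (ERdj5), a J protein that reduces disulfide bonds, had r = 0.505 and did not pass (adjusted permutation p = 0.200). Hspa13 (STCH), a microsomal HSP70-like protein, had r = 0.821 and Hyou1 (GRP170), which exchanges nucleotide on BiP, 0.768, both past the threshold. Hsp90b1 (GRP94), the HSP90 of the ER, had r = 0.60 and did not pass (adjusted permutation p = 0.105). With the second Hspa5 probe set as the anchor, Hsp90b1 did pass, at r = 0.7335. In the main setting, 6 of 8 genes of this role passed. The calls of Dnajc3 and Hyou1 were lost with Spearman's rho (adjusted permutation p = 0.0561 and 0.095) and without the 2 mice farthest from the Hspa5 median (0.237 and 0.110), and that of Dnajc3 also with no filter on low values.

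Creld2 and Manf encode small secreted or luminal proteins induced by ER stress, and both followed Hspa5. Creld2 lay between 9.7366 and 9.7651 in MSXH livers (median 9.7540) and between 9.7332 and 9.7702 in HFD livers (median 9.7532), the widest spread of the 32 genes. Manf lay between 10.4848 and 10.4913 in MSXH livers (median 10.4882) and between 10.4842 and 10.4928 in HFD livers (median 10.4890). The diets overlapped for both genes, and in both the lowest mice were MSXH replicate 5 and HFD replicate 2. Their r with Hspa5 was 0.942 for Creld2 and 0.970 for Manf, and with each other 0.960.

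**Figure D2:**
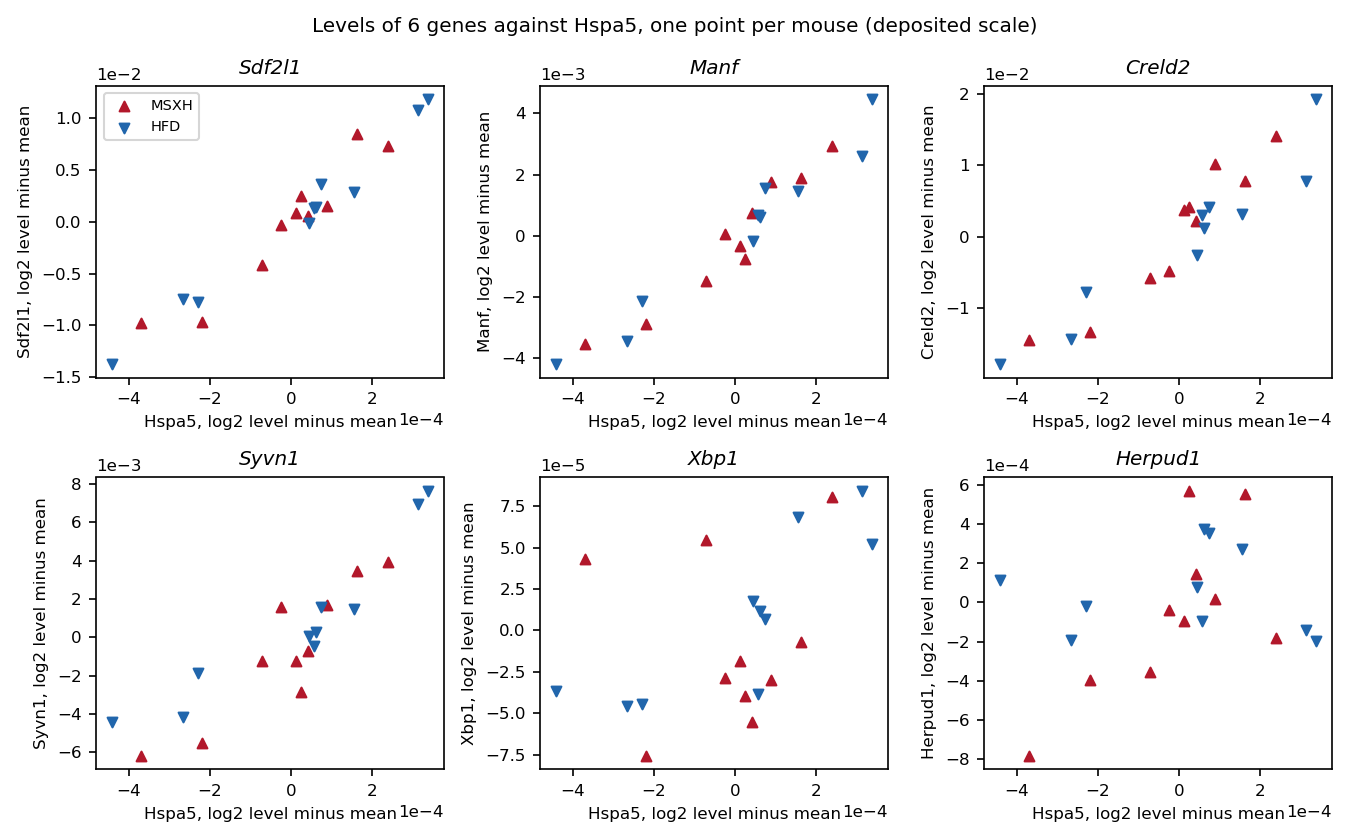
Deposited log2 level of 6 genes (vertical axes) against that of Hspa5 (horizontal axes), each minus the gene's mean, with 1 point per mouse (red triangles pointing up MSXH, blue triangles pointing down HFD). Sdf2l1, Manf, Creld2 and Syvn1 follow Hspa5 closely in both diets (r from 0.908 to 0.976), whereas Xbp1 (0.518) and Herpud1 (0.341) scatter.

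Of the lectin chaperones, disulfide isomerases and oxidases, 5 of 7 passed. Pdia4, an isomerase (ERp72), followed Hspa5 at r = 0.944. Its levels ran from 9.96628 over a median of 9.96737 to 9.96837 in MSXH livers and from 9.96571 over 9.96744 to 9.96885 in HFD livers, so the HFD range enclosed the MSXH range. Calr, calreticulin, a lectin chaperone of the lumen, had r = 0.873, and Ero1b, an oxidase that recharges isomerases, 0.842. The isomerases Pdia6 (0.806) and Pdia3 (ERp57, 0.789) also passed, Pdia3 not without the 2 mice farthest from the Hspa5 median (adjusted permutation p = 0.0761). Canx, calnexin, the membrane-bound lectin chaperone, had r = 0.469 (adjusted permutation p = 0.237), and P4hb 0.486 (adjusted permutation p = 0.218).

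In ER-associated degradation, which extracts misfolded proteins from the ER for the proteasome, 5 of 7 genes passed. The core of the main ubiquitin ligase, Sel1l and Syvn1 (HRD1), was closest to Hspa5, with r = 0.967 and 0.908. Sel1l ran from 9.91268 to 9.91505 in MSXH livers (median 9.91414) and from 9.91271 to 9.91561 in HFD livers (median 9.91426). Syvn1 ran from 9.1573 to 9.1674 in MSXH livers (median 9.1625) and from 9.1591 to 9.1711 in HFD livers (median 9.1637). For both genes MSXH replicate 5 and HFD replicate 2 were lowest in their diet, MSXH replicate 4 and HFD replicate 5 highest, and the diets overlapped. The derlins, membrane proteins of the same route, gave r = 0.845 for Derl2 and 0.791 for Derl3, which passed, and 0.677 for Derl1, which did not (adjusted permutation p = 0.0556). Edem1, which trims mannose from misfolded glycoproteins, had r = 0.782 and passed. Without the 2 mice farthest from the Hspa5 median Derl3 no longer passed (adjusted permutation p = 0.0652). These r too are of 1 probe set per gene. Dimmer Sel1l probe sets followed the main one at r = 0.894, 0.6155, 0.572 and 0.457. For Derl1 the values were 0.798, 0.460 and 0.366, for Edem1 0.557, for Derl2 0.779 and for Syvn1 0.9865.

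Herpud1, a membrane protein that scaffolds the ligase, had the lowest correlation with Hspa5 of the 31, r = 0.341 (adjusted permutation p = 0.428). Its levels ran from 11.77512 to 11.77648 in MSXH livers (median 11.77584) and from 11.77571 to 11.77628 in HFD livers (median 11.77593). The MSXH range enclosed the HFD range, and the mice with the highest Hspa5, HFD replicates 3 and 5, were below the Herpud1 mean. A second Herpud1 probe set gave the same pattern over mice (r = 0.965 between the probe sets). Among the members, Herpud1 was closest to Eif2ak3 (r = 0.70) and lowest with Xbp1 (r = -0.184), the only pair of members below 0.

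Of the sensors and their transcription factors, 2 of 4 passed. Eif2ak3 (PERK) had r = 0.744 with Hspa5 and Ern1 (IRE1) 0.699 (adjusted permutation p = 0.0229 and 0.0389). Neither call held with Spearman's rho (adjusted permutation p = 0.0533 for Eif2ak3 and 0.286 for Ern1) or without the 2 mice farthest from the Hspa5 median (0.169 and 0.203), so 0 of 4 passed under those settings, and that of Ern1 was also lost with no filter and with the second Hspa5 probe set. Atf6 had 0.583 and Xbp1 0.518 (adjusted permutation p = 0.123 and 0.181). The mRNA level of a sensor does not show its activation, and the arrays do not separate spliced from unspliced Xbp1. Xbp1 ran from 12.232746 to 12.232902 in MSXH livers (median 12.232798) and from 12.232776 to 12.232906 in HFD livers (median 12.232831), overlapping throughout. Of the 6 pairs among these 4 genes 0 reached r = 0.7, and r ran from 0.0147 for Atf6 with Xbp1 to 0.643 for Ern1 with Xbp1. Each sensor had a different closest partner. Eif2ak3 was closest to Dnajb9 (r = 0.846), Ern1 to Calr (0.782) and Atf6 to Canx (0.780). All these r are of 1 probe set per gene. For Ern1, dimmer probe sets above the filter followed the main one at only r = 0.148 and 0.0791. For Atf6 the values were 0.10 and 0.278. The dimmer probe sets of Eif2ak3 lay below the filter (r = 0.0404 and 0.454).

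The translocon genes were closest to one another. Sec61a1 and Sec61b encode subunits of the channel through which new proteins enter the ER, and Ssr1 a subunit of the translocon-associated protein complex. None of these 3 passed with Hspa5 (r = 0.584, 0.454 and 0.549), but all 3 pairs among them were at r of 0.930 to 0.947. The member outside this role with the highest r to each of them was P4hb, with r = 0.925 to Sec61b, 0.899 to Ssr1 and 0.866 to Sec61a1.

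Over all 496 pairs of members, 172 had r of at least 0.7 (34.7%), where 0.547% of all pairs of genes tested did. The median r was 0.618 over member pairs and 0.012 over all pairs. By role, r of at least 0.7 was seen in 15 of 36 pairs of HSP70 partners and Hsp90b1, 12 of 21 pairs of lectin chaperones and disulfide enzymes and 10 of 21 pairs of degradation genes. With quantile normalization between arrays, 4 members, Hspa5 among them, lost all spread, and 37 of the remaining 378 pairs (9.79%) reached 0.7, against 1.47% of all pairs. With arrays moved to a common median the order turned: 39.7% of member pairs reached 0.7, against 67.7% of all pairs. The median r was then 0.642 over member pairs and 0.875 over all pairs. That setting subtracts the same amount from all genes of an array. These amounts spanned 0.000176, against a median SD of 1.484e-05 over genes, so genes with little spread share what was subtracted.

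**Figure D3:**
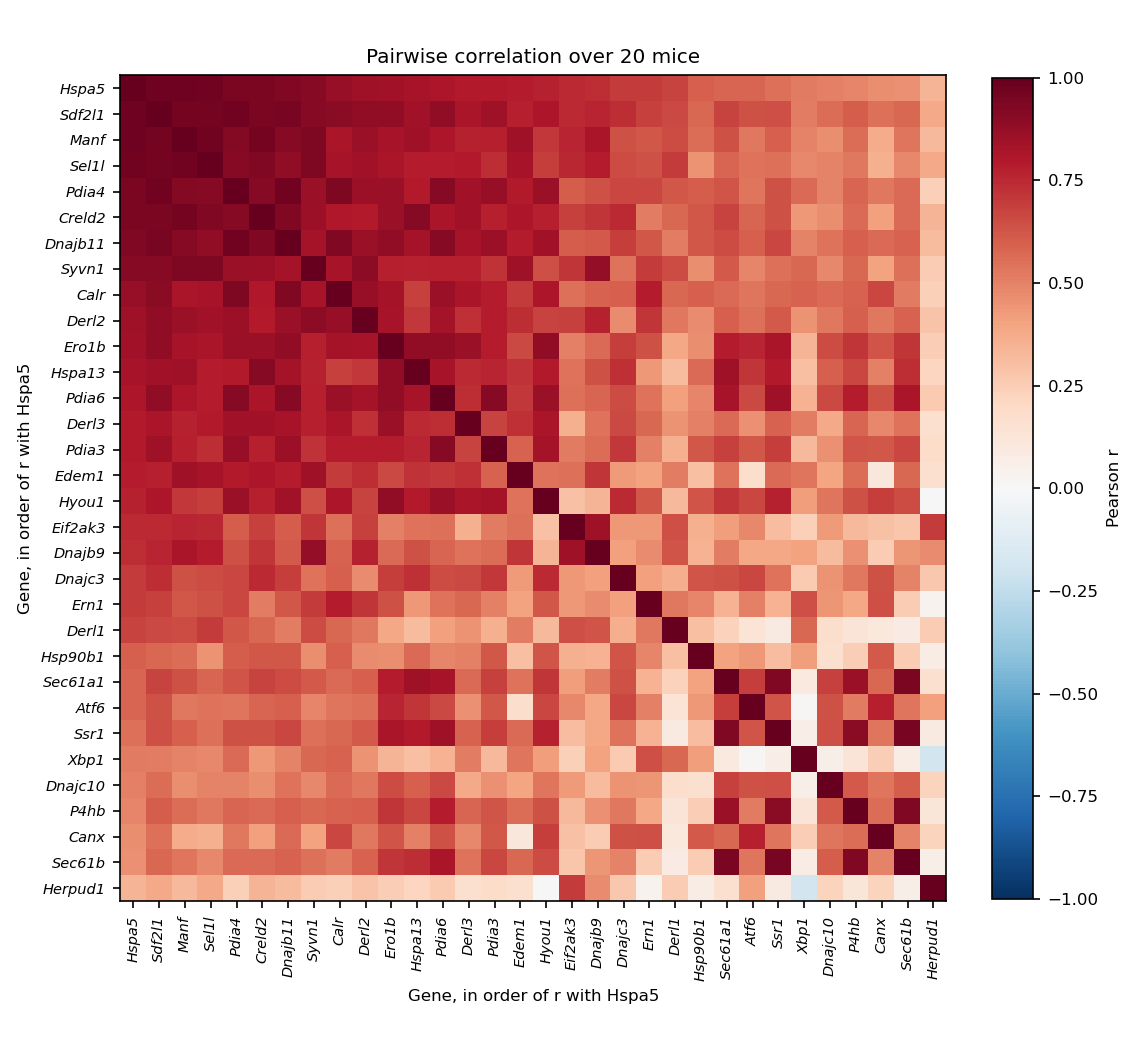
Pearson r over 20 mice between all pairs of the 32 genes (color scale from -1 to 1), ordered on both axes by r with Hspa5. The upper left block from Hspa5 to Syvn1 is darkest, Sec61a1, Ssr1, P4hb and Sec61b form a separate dark set, and Herpud1 with Xbp1 is the pair below 0.

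The same mice were high or low for nearly all members. MSXH replicate 8 was above the 20-mouse mean in 29 of 32 genes and MSXH replicate 4 in 28, while HFD replicates 3 and 5 were above it in 31 each and HFD replicate 6 in 29. At the other end, MSXH replicates 2 and 5 were above the mean in 1 of 32 genes each and MSXH replicate 10 in 4, while HFD replicates 2 and 7 were above it in 1 each and HFD replicate 10 in 2. High and low mice thus occurred in both diets.

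**Figure D4:**
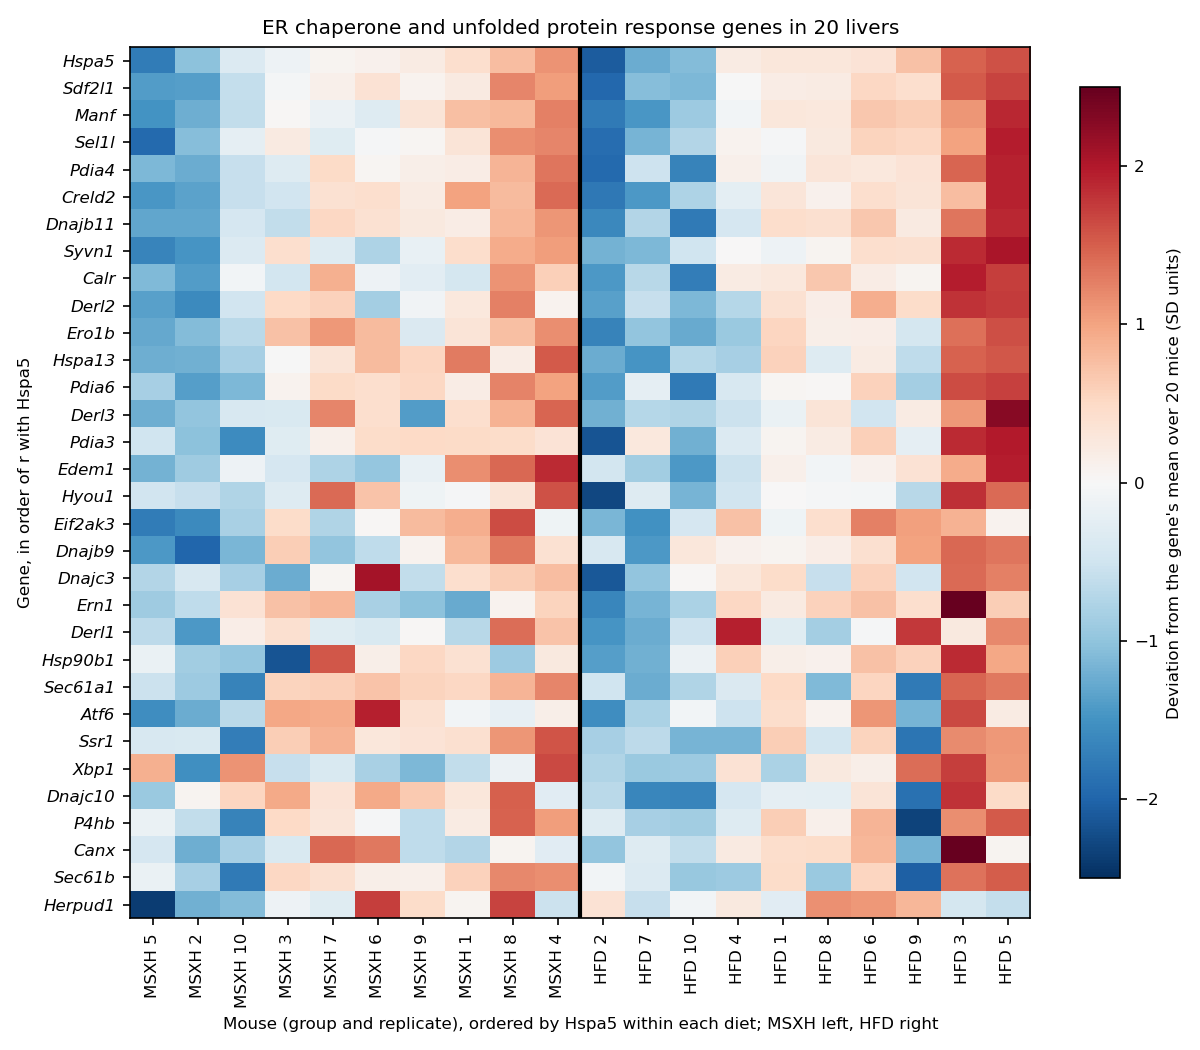
Level of the 32 genes (rows, in order of r with Hspa5) in each mouse (columns, MSXH left and HFD right of the black line, ordered by Hspa5 within a diet) as the deviation from the gene's mean over 20 mice in SD units. Whole columns are blue at the left end of each diet (MSXH 5 and 2, HFD 2, 7 and 10) and red at the right end (MSXH 8 and 4, HFD 3 and 5), while the lower rows down to Herpud1 follow this less closely.

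Fewer members passed when the mice with the lowest Hspa5 were left out. Without the 2 mice farthest from the Hspa5 median (MSXH replicate 5 and HFD replicate 2), 14 members still passed, and r was 0.970 for Sdf2l1 and 0.963 for Manf. Hspa5 of 5 mice, MSXH replicates 2 and 5 and HFD replicates 2, 7 and 10, lay more than 1 SD below the mean. Without these 5, an alternative chosen after seeing the data, 3 members and 4 genes in all passed, and the median r of the members was 0.656, against -0.037 over all genes. In those 15 mice r with Hspa5 was still above 0 in 30 of 31 members, and that of Herpud1 was -0.12. Leaving out mice by their Hspa5 narrows its range and leaves fewer mice to test. The lower counts therefore cannot tell whether the correlation rests on those mice.

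Within each diet the pattern was present. The median r of the members with Hspa5 was 0.734 in the 10 MSXH mice and 0.842 in the 10 HFD mice, against 0.0637 and 0.0648 over all genes. An r of at least 0.7 was seen in 17 of 31 members in MSXH mice and in 22 in HFD mice, 16 of them in both. Hsp90b1 had r = 0.207 in MSXH mice and 0.925 in HFD mice, Ern1 0.304 in MSXH mice and 0.896 in HFD mice, and Xbp1 0.104 in MSXH mice and 0.838 in HFD mice. Herpud1 had 0.696 in MSXH mice and -0.0477 in HFD mice. When the difference between diets was tested by permuting diet labels, a test added after seeing the data, 0 of 11727 genes passed (smallest adjusted p = 0.9996), and 468 had an unadjusted p under 0.05. Hsp90b1 and Ern1 were the members at an unadjusted permutation p under 0.05 (p = 0.0144 and 0.0226), so no difference in r between diets was established for any member.

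Genes outside the list with the highest r to Hspa5 included several with known ER or secretory roles. They were Cdk2ap2 (0.891), Gfpt1 (0.886), Fndc3a (0.885), Tbc1d8b (0.885), Magt1 (0.876), Kdelr2 (0.862), Tmed3 (0.861) and Nktr (0.858), each with an adjusted permutation p of 0.00404. Gfpt1 is the rate-limiting enzyme of hexosamine synthesis, Magt1 a subunit of the oligosaccharyltransferase, Kdelr2 a receptor that returns ER proteins from the Golgi and Tmed3 a cargo receptor of the early secretory pathway.

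Further genes of ER function also followed Hspa5 in part, where 1.65% of all genes tested passed with a positive r. In further genes of ER-associated degradation, 3 of 23 passed with a positive r (median r 0.371), with Edem3, a mannosidase, at 0.853 and Selenok, a selenoprotein of the ER membrane, at 0.802. In further folding and disulfide genes 7 of 27 passed (median 0.438), with Uggt1, the sensor of unfolded glycoproteins, at 0.823 and Erp44, which retains client proteins, at 0.815. In ER entry and N-glycosylation 5 of 27 passed (median 0.549), with Spcs2 of the signal peptidase at 0.802 and Ostc of the oligosaccharyltransferase at 0.782. In ER to Golgi transport 5 of 19 passed (median 0.581), with Kdelr2 at 0.862 and Lman1, a cargo lectin, at 0.852. These are counts of lists that were compared by no test, and the lists were drawn up with earlier results known.

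In stress lists outside the ER lumen 0 or 1 gene passed, where 1.65% of all genes tested passed with a positive r. These lists are small, and the counts do not set them apart from the further ER lists. Of 16 genes of the integrated stress response around ATF4, 0 passed the permutation test (median r 0.0749, highest 0.572, for Ddit3, the transcription factor CHOP). Of 7 ER-membrane transcription factors and their proteases (median r 0.102) 1 passed, Creb3l2 at 0.710. Of 17 cytosolic heat shock chaperones 1 passed, Fkbp4, an HSP90 co-chaperone, at 0.793. The median r of these heat shock genes was 0.454, within the range of the medians of the further ER lists.

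Markers of cell types did not pass with Hspa5 in any list. The 8 hepatocyte markers had a median r of -0.342, from -0.624 to 0.189. In the lists other than the hepatocyte and Kupffer lists, median r ran from -0.390 (5 exocrine pancreas markers) to 0.435 (3 red blood cell markers). The highest r of a single marker was 0.649, in the stellate cell list. All 10 Kupffer cell and macrophage markers had positive r, from 0.269 to 0.487 (median 0.427), and their summed log2 level was 86.2694 to 86.2844 in MSXH livers and 86.2732 to 86.2845 in HFD livers. None of these 10 lay below the filter. Their part in the shared movement of the ER genes was not tested. The actin 3′ minus 5′ control, a sign of RNA integrity, had r = -0.152 with Hspa5 (two-sided permutation p = 0.525). Its SD was 5.31e-05 in MSXH and 5.16e-05 in HFD livers. On this compressed scale it is not known how well it tracks RNA integrity.

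Genes with ERSE and those without it were both close to Hspa5. The median r was 0.806 in the 9 members with ERSE other than Hspa5 and 0.743 in the 16 without it. Among members with the element r ran from Canx at 0.469 to Creld2 at 0.942, and Sdf2l1, Sel1l and Pdia4, near the top of the ranking, had no match in the window. Outside the list, 6 genes tested had ERSE; their median r was -0.0888 and 0 of them passed the permutation test.

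No difference between the diets was detected for any of the 32 genes. With limma, 0 of 32 members differed between MSXH and HFD livers, and 0 of 11728 genes did (0% called, smallest adjusted p = 0.9998). At an unadjusted p under 0.05 there were 0 members and 425 genes (3.62%). Every 95% interval of Hedges' g, the difference of the group means in SD units (MSXH minus HFD), included 0, and the widest bounds were -1.48 and 1.75. With 10 mice per group the intervals were wide, and a difference of any size inside its gene's interval remains compatible with these data.

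**Figure D5:**
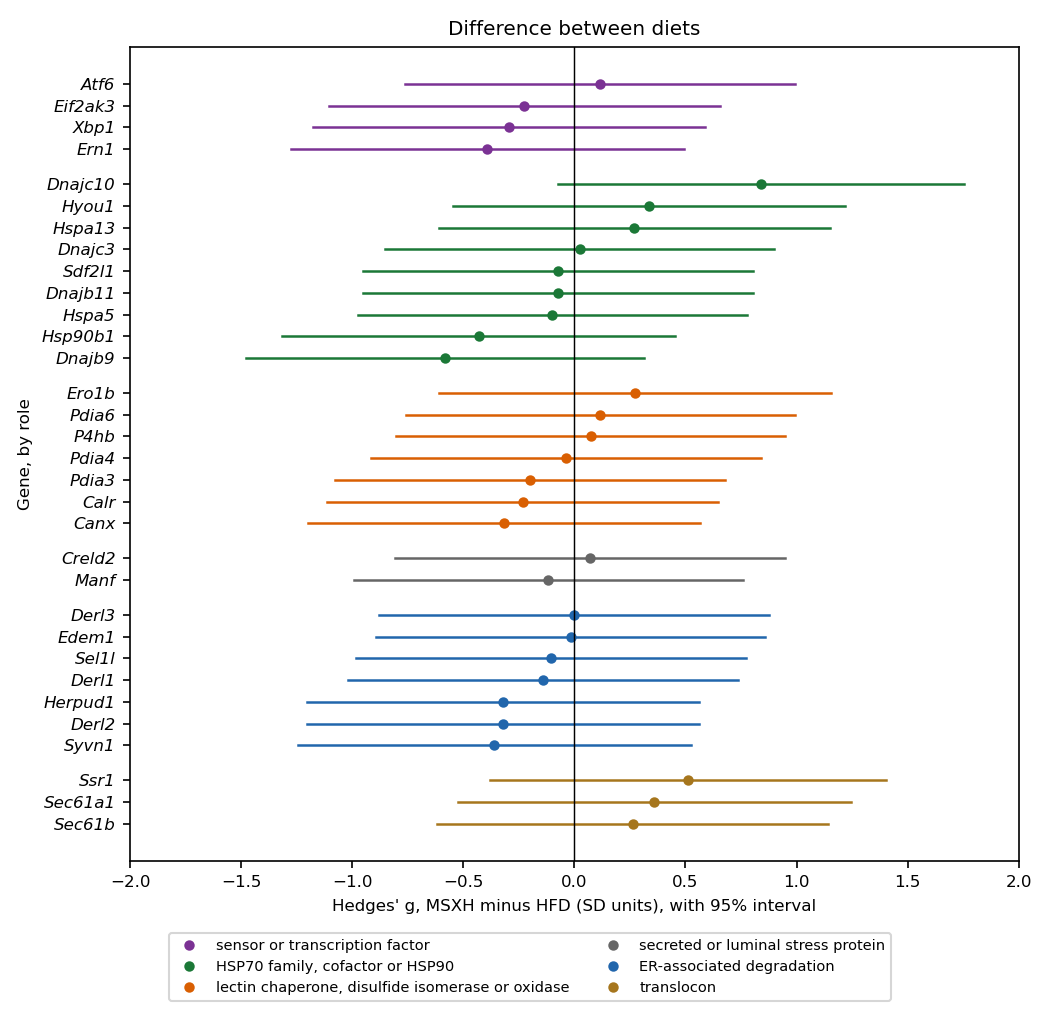
Hedges' g between diets, MSXH minus HFD, in SD units (horizontal axis), for each of the 32 genes (points, colored by role, n = 10 mice per group), with its 95% interval (lines). All 32 intervals cross 0, and the genes range from -0.584 (Dnajb9) to 0.839 (Dnajc10).

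Dnajc10 was the member with the largest difference. Its levels ran from 8.499302 over a median of 8.499338 to 8.499367 in MSXH livers and from 8.499276 over 8.499318 to 8.499375 in HFD livers. The HFD range enclosed the MSXH range, and 9 of 10 MSXH mice were above the HFD median. Its g was 0.839 (95% interval -0.0753 to 1.75, limma p = 0.0613, adjusted p = 0.9998), and its 2 other probe sets gave 0.810 and 0.591. With quantile normalization g of Dnajc10 was -0.12, and with arrays moved to a common median 0.551. At the other end stood Dnajb9, with 10.35118 to 10.35397 in MSXH livers (median 10.35263) and 10.35165 to 10.35408 in HFD livers (median 10.35305). The groups overlapped, and g was -0.584 (95% interval -1.48 to 0.311, adjusted limma p = 0.9998).

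Hspa5 had g = -0.099 (95% interval -0.976 to 0.778), and its nearest followers were as close to 0: Sdf2l1 -0.0734, Manf -0.117, Sel1l -0.105, Pdia4 -0.0386 and Creld2 0.0701. Over all members 12 were above 0 and 20 below (median -0.0740), against 5793 above and 5935 below over all genes (median -0.0069). After shifting arrays to a common median the split was 20 above and 12 below, with array weights 16 and 16, with the mean of all probe sets 11 and 21, and with quantile normalization 6 and 22 of 28, so the direction depended on the scaling. All 7 degradation genes were below 0, between -0.360 (Syvn1) and -0.00243 (Derl3), but with arrays shifted to the same median 4 were above 0. The 3 translocon genes were above 0 (Ssr1 0.511, Sec61a1 0.360, Sec61b 0.262), and with quantile normalization 2 of 3 were, with Ssr1 at -0.84. Among the sensors and transcription factors, Atf6 was at 0.116, Eif2ak3 at -0.226, Xbp1 at -0.294 and Ern1 at -0.392. Atf6 was at -0.0318 with quantile normalization and at -0.0858 with the mean of its probe sets, and its 2 other probe sets, at -0.443 and -0.621, followed the main one weakly (r = 0.10 and 0.278). Xbp1 was at 0.0444 with arrays moved to a common median.

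In the further lists limma called 0 genes between diets. Of the 23 further degradation genes 8 were above 0 and 15 below, of the 27 folding genes 17 and 10, of the 27 entry and glycosylation genes 23 and 4, and of the 19 transport genes 8 and 11. Of the 16 ATF4 genes 2 were above 0 and 14 below. Of the 17 cytosolic heat shock genes 1 was above 0 and 16 below, with Hspa4, an HSP110-type chaperone, at g = -1.06 (95% interval -1.99 to -0.123, limma p = 0.0229, adjusted p = 0.9998). The splits of these further lists were counted on the deposited scale only. Since the split of the members changed with the scaling, no direction is read from them.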

How the data were processed

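Liver RNA of 20 mice was measured on Affymetrix arrays, 10 for MSXH and 10 for HFD, with biotin-labelled RNA copies made from 200 ng of total RNA by a 3′ IVT kit, per the labels' protocols. The authors deposited log2 levels for 45101 probe sets. The log base was inferred from the highest value, 14.96. How the scans were background-corrected, normalized and summarized per probe set is not given in the sources used here. Over all probe sets the median of every array was 6.507.

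The platform annotation names a single gene for 34945 probe sets. Each gene was represented by its brightest one, and genes averaging under 6.505, the probe sets' median, were left out. Of the 32 members 24 had several probe sets. Of 45 further ones above the filter, 29 correlated with the main one at r of at least 0.7 and 31 shared the sign of g.

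The diet comparison used R 4.3.3 and limma 3.58.1 (lmFit and eBayes, Benjamini-Hochberg over 11728 genes, threshold 0.05). Pearson r with Hspa5 was tested with 100000 permutations of the mice and adjusted over 11727 genes (numpy 2.4.6, scipy 1.17.1, Python 3.11.15). Both steps were tested on simulated data. Named genes were all members, the 8 other genes with the highest r, and per further pathway list up to 2 with the smallest unadjusted limma p under 0.05 and up to 2 with the highest r past the threshold; cell type lists were given by counts and ranges only. Ddit3 was named after its value was seen. Members, lists and tests were chosen with earlier results of these data known. Alternatives covered scaling, filter, probe set, test, variance model, array weights, replicate number and leaving out arrays.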

Additional observations from a re-analysis of the deposited data

Results flagged for a closer look

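Canx in HFD livers had a mouse apart from the others: the highest mouse, replicate 3, was separated from its nearest neighbour by 0.49 of the group's range. Of 64 sets of 10 mice examined (32 genes in both diets) this was the only 1 past the limit, where chance gives about 5%, or 3.2 sets.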

How the results depend on the processing

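The count of 0 genes and 0 members between diets held in all 9 alternative fits and in the 20 fits without 1 array, and at an unadjusted p under 0.05 it was 0 or 1 member. The labels share replicate numbers between diets, but same-numbered mice did not deviate together (mean r 0.053, range -0.133 to 0.369; mean r -0.006 between unlike numbers). Their own number was the closest match for 2 of 20 arrays, and with the replicate block 0 genes and 0 members were called. Genes correlated with Hspa5 numbered 212. The count was 60 with Spearman's rho, 46 without the 2 mice farthest from the Hspa5 median, 111 with the second Hspa5 probe set as anchor and 4 without the 5 mice lowest in Hspa5, the last 2 chosen after seeing the data. Leaving out 1 array gave 79 (HFD replicate 2) to 479 (HFD replicate 9), with 92 without MSXH replicate 5, 126 without MSXH replicate 2, and 87, 116 and 132 without HFD replicates 3, 5 and 10. Members correlated with Hspa5 numbered 20, 16 with Spearman's rho, 3 without the 5 lowest mice (where r of Herpud1 was -0.1195), and 15 to 25 without 1 array. Member pairs at r of at least 0.7 numbered 172, 37 of 378 with quantile normalization, and 161 to 217 without 1 array. Quantile normalization left Hspa5 with no spread, so no correlation with it was run there. Array medians without control probe sets spanned 0.000176, against a median SD of 1.484e-05 over genes, and removing these differences gave a median r of 0.875 over all gene pairs and 0.642 over member pairs. The sign of g changed for 8 of 32 members under that shift, 7 of 28 with quantile normalization, 4 of 32 with array weights and 3 of 32 with the mean of all probe sets. The cause was not tested, except that fewer mice enter the counts without arrays and that the shift to a common median is the same for all genes of an array. These values give no signal over background, which limits what can be said of dim probe sets.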
